A study of Mus musculus with 6 samples.

Results

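The Rhox cluster is a group of related homeobox genes on the mouse X chromosome that are used in the reproductive tract, the germ line and the placenta. Its expression was examined here in 3 lines of induced pluripotent stem (iPS) cells set against embryonic stem (ES) cells. The members were Rhox5, Rhox6, Rhox9 and Rhox11, taken as every probe of the array whose gene symbol, current or older, is one of these. Of the 4 members, 3 had a probe, Rhox6, Rhox9 and Rhox11, with 1 probe each, among 18295 genes with a probe in all. The probe table used here names no probe for Rhox5, also under its older name Pem, so Rhox5 was not analysed here. A search for further genes of the cluster found 1, Rhox13, with 1 probe, and its values are given beside those of the members. The gene table lists 42 Rhox genes and pseudogenes, so most of the cluster was not analysed here.

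The iPS lines, named iPS1, iPS4 and iPS5, were expanded from green fluorescent colonies of OG2 mouse embryonic fibroblasts, whose reporter of Oct4 lights up in pluripotent cells. The fibroblasts had received a mixture of pMX retroviruses carrying Oct4, Sox2, Klf4 and c-Myc together with TBP, TAF5 and TAF7 and the histone-fold proteins TAF3, TAF4, TAF4b, TAF6, TAF9, TAF10, TAF11, TAF12 and TAF13, all of them subunits of the general transcription factor TFIID. The control was RNA pooled from OG2 ES cells. Both kinds of cell were grown with leukaemia inhibitory factor (LIF) on irradiated embryonic fibroblasts, whose RNA may be present in each sample. Each line was hybridised against the pool on 2 two-colour arrays of opposite dye orientation, 6 arrays in all. Whether both arrays of a line had separate RNA is not in the labels. Each line was therefore taken as 1 replicate, and the pool counted as 1 sample whose own spread is left out of the tests, except where it was given that of a line.

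Rhox genes encode transcription factors with a homeodomain, and several of them are known as regulators of germ cell and support cell function in the testis. Rhox6 and Rhox9, also called Psx1 and Psx2, are close paralogs first described in the placenta. In mouse embryonic cells the cluster is known for being silenced by DNA methylation. None of these roles was measured here.

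Signals were low on the iPS5 arrays. A channel was taken as above background on a probe where its background-subtracted signal exceeded percentile 95 of a dim control reporter. By this measure 44.4% to 64.6% of the 41174 gene probes were above background per channel on the iPS5 arrays, against 64.5% to 88.0% on the other 4 arrays. The number of arrays and these signals limit the precision. Ratios are given as log2 of iPS over ES, where a value below 0 is a lower level in the iPS line, after a background correction that adds an offset of 50 to each signal and so pulls the ratios of dim probes toward 0.

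Rhox6 and Rhox9 were lower in the 3 iPS lines than in the ES pool, Rhox13 was lower in each line taken alone, and Rhox11 was near background throughout. Rhox6 averaged -0.86 ± 0.328 (SD, n = 3 lines), which leaves 54.9% of the ES level. Rhox9 averaged -0.67 ± 0.206 (SD, n = 3), which leaves 62.8%. Both passed limma's moderated test of the line means against 0, with Benjamini-Hochberg adjusted p over all gene probes of 0.0473 for Rhox6 and 0.0381 for Rhox9. In that test 3.82% of all gene probes were called lower. Of the 3 members with a probe, 2 were called lower and 0 higher.

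Rhox6, known for expression in placental trophoblast and germ cells, was measured above background in both channels on all 6 arrays. Its log2 ratio was -0.46 and -0.51 on the arrays of iPS1, -1.05 and -1.13 on those of iPS4, and -1.13 and -0.90 on those of iPS5. All 6 arrays gave a lower level in the iPS line, and the iPS1 arrays lay closer to 0 than the other 4. The background-subtracted signals behind these ratios were 271 in the iPS channel and 230.1 in the ES channel on the first iPS1 array, where iPS RNA carried Cy5. On the second iPS1 array, with the dyes exchanged, they were 145 and 369.6. Signals of different dyes are comparable only after normalization, and the first array has the higher raw signal in its iPS channel and a normalized ratio below 0. On the iPS4 arrays the iPS and ES signals were 127 and 237 with iPS RNA in Cy5, and 90.4 and 512 with it in Cy3. On the iPS5 arrays they were 29.6 and 186 with iPS RNA in Cy3, and 20.6 and 58.0 with it in Cy5. The iPS channel of iPS5 was thus close to the background limits of 28.0 and 10.4 on those arrays.

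As a normalized log2 level, Rhox6 was 8.07 ± 0.209 (SD) over the 6 readings of the ES pool, from 7.91 to 8.48. It was 7.47 in iPS1, 7.22 in iPS5 and 6.92 in iPS4, each the mean of 2 arrays. The highest ES reading, 8.48, came from the first iPS5 array and stood apart from the other 5, which reached 8.02. No iPS reading overlapped the ES readings, since the highest of them was 7.49. How many of all gene probes separate in this way was not counted, here and for Rhox9 and Rhox13 below. The order of these levels places iPS4 below iPS5, while the ratios of both lines to the pool on their own arrays, -1.09 and -1.02, gave a difference that did not pass the test given below.

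**Figure D1:**
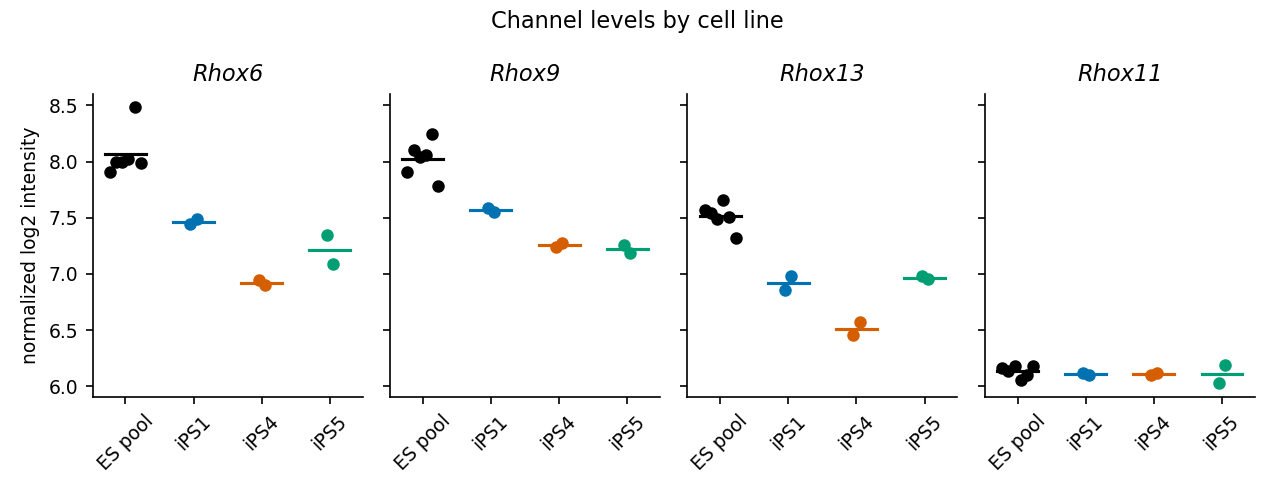
Normalized log2 intensity (vertical axis) of Rhox6, Rhox9, Rhox13 and Rhox11 in the ES pool (6 readings) and in iPS1, iPS4 and iPS5 (2 readings each). Points are single array channels and lines are means; the iPS points lie below all ES points for Rhox6, Rhox9 and Rhox13, and Rhox11 lies near 6.1 in every sample. The ES points are repeats of the same pool, and how many of all gene probes separate in this way was not counted.

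Rhox9, the paralog of Rhox6 that is likewise known from the placenta and the germ line, was also closest to the pool in iPS1. Its log2 ratio was -0.32 and -0.55 on the arrays of iPS1, -0.79 and -0.78 on those of iPS4, and -0.99 and -0.59 on those of iPS5. The arrays of iPS4 gave nearly the same ratio, whereas those of iPS1 and iPS5 spread more widely, with the array carrying iPS RNA in Cy3 the lower in both. The background-subtracted iPS and ES signals were 309 and 231 on the first array of iPS1 and 155 and 406 on the second. They were 175 and 249.8 on the first array of iPS4 and 134 and 548 on the second. On the first array of iPS5 they were 27.7 and 153, and on the second 26.9 and 46.8. The iPS reading of 27.7 fell just short of its background limit of 28.0, and the other 11 of 12 readings were above theirs. The normalized log2 level was 8.02 ± 0.160 (SD) over the 6 ES readings and 7.57, 7.26 and 7.22 in iPS1, iPS4 and iPS5. The lowest ES reading was 7.78 and the highest iPS reading 7.59, so the readings did not overlap. The ES readings are repeats of the same pool, and the share of all gene probes that separate so was not counted. Probe sequences were not used here, so signal that one paralog may give on the probe of the other cannot be told apart.

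Rhox13, which in mice is known for expression in male germ cells, is no member of the set but lies in the same cluster. Its log2 ratio was -0.70 and -0.56 on the arrays of iPS1, -1.03 and -1.09 on those of iPS4, and -0.52 and -0.37 on those of iPS5. All 6 ratios were below 0, and those of iPS4 were the lowest. It was above background in 11 of 12 readings, and the iPS channel of the first iPS5 array, at 24.9, was just below its limit of 28.0. The mean over lines was -0.71 ± 0.316 (SD, n = 3), with an adjusted p in limma of 0.0599 that missed the threshold of 0.05. It passed under 7 of 17 alternatives, with offset 0 (-1.22, 0.0173), plain subtraction (-1.14, 0.0156), median centring (-0.76, 0.0174), arrays scaled (-0.69, 0.0298) and the line as a random block (-0.71, 0.00285), and without iPS5 (-0.85, 0.0449) or its second array (-0.74, 0.0308). The normalized log2 level was 7.51 ± 0.111 (SD) in the 6 ES readings and 6.92, 6.51 and 6.97 in iPS1, iPS4 and iPS5. The highest iPS reading, 6.99, was below the lowest ES reading, 7.32.

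Rhox11, another homeobox gene of the cluster that is known from the testis, gave no measurable signal in most readings. It exceeded the background limit in 5 of 12 channel readings, of which 4 were in Cy5 and 1 in Cy3, and in none of those of the iPS5 arrays. Its log2 ratio was -0.05 and -0.03 on the arrays of iPS1, -0.08 and 0.06 on those of iPS4, and -0.08 and 0.0022 on those of iPS5. The mean was -0.03 ± 0.0158 (SD, n = 3; limma adjusted p = 0.566), and the normalized log2 level was 6.14 ± 0.0499 (SD) in the ES pool and 6.11 in each line. At this signal a change in Rhox11 was not detectable.

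**Figure D2:**
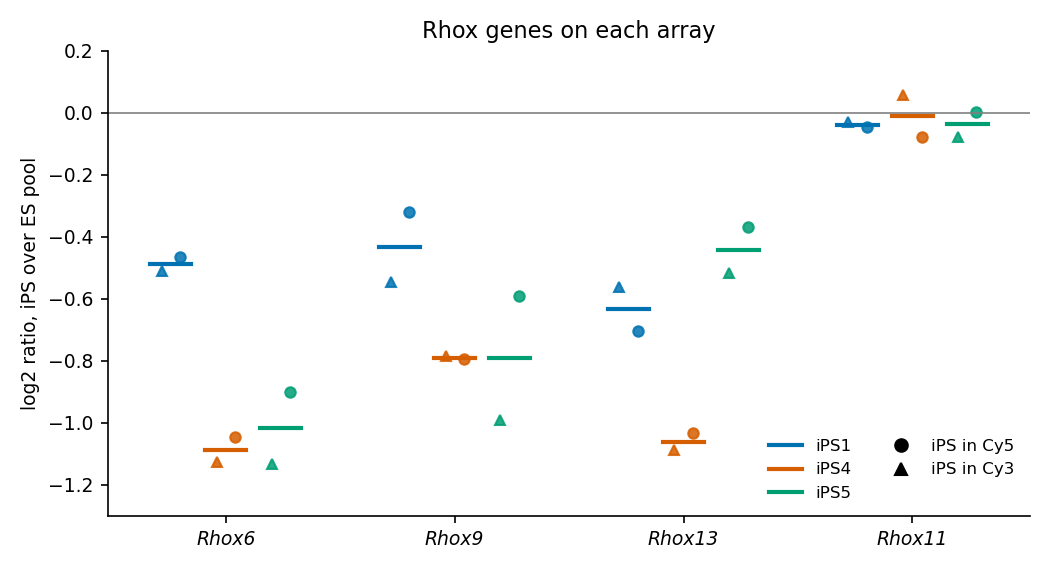
Log2 ratio of iPS over ES (vertical axis) for Rhox6, Rhox9, Rhox13 and Rhox11 on each of the 6 arrays. Circles are arrays with iPS RNA in Cy5, triangles arrays with it in Cy3, and bars the mean of each line; Rhox6, Rhox9 and Rhox13 are below 0 on every array, and Rhox11 lies between -0.08 and 0.06.

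RefSeq promoter windows of GRCm38.p6, from 250 bases before to 50 after the start of the gene, were at hand for 2 of the 4 Rhox genes with a probe, Rhox11 and Rhox13. They are shown because the genes are neighbours in the cluster with different readings on the arrays, and because the cluster's silencing is known to work through methylated CG. Capitals mark every CG dinucleotide, which reads the same on both strands.
Rhox11, chrX:38085090-38085389, minus strand: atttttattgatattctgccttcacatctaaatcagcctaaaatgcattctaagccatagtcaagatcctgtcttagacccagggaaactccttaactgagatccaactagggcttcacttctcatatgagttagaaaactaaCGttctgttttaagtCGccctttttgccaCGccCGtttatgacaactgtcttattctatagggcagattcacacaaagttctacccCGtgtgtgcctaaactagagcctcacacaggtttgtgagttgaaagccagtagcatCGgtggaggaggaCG
Rhox13, chrX:38120590-38120889, plus strand: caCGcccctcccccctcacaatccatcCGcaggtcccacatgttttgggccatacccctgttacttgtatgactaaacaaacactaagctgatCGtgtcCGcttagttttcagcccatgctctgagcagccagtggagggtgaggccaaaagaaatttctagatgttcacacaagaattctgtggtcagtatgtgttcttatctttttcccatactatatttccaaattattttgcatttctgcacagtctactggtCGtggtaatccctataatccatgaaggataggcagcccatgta
The Rhox11 window holds 7 CG in 300 bases with 43% G and C, and the Rhox13 window holds 5 with 45.3%. Among 27025 gene windows of that length the median was 7 CG, 94.2% held at least 1, 52.3% held as many as Rhox11 or more, and 61.7% as many as Rhox13 or more. Methylation was not measured here.

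Each line was next set against the pool on its own, in a limma fit of all 6 arrays with a term for the dye, where the spread is that of duplicate arrays and may be technical. In iPS1, Rhox6 was 1.40-fold lower (log2 -0.49, SE 0.0450, adjusted p = 1.90e-04) and Rhox9 1.35-fold lower (log2 -0.43, SE 0.0663, adjusted p = 0.00198), in a comparison that called 17.1% of all gene probes lower. In iPS4, Rhox6 was 2.12-fold lower (adjusted p = 9.69e-06) and Rhox9 1.73-fold lower (adjusted p = 1.23e-04), against 18.3% of all gene probes. In iPS5, Rhox6 was 2.03-fold lower (adjusted p = 2.37e-05) and Rhox9 1.73-fold lower (adjusted p = 2.62e-04), against 9.36% of all gene probes. Rhox13 also passed in each line, at -0.63 in iPS1, -1.06 in iPS4 and -0.44 in iPS5, with adjusted p of 1.36e-04, 1.79e-05 and 0.00135. Rhox11 passed in none of the lines, with adjusted p of 0.583, 0.895 and 0.722. The call of Rhox9 in iPS1 was lost without either iPS1 array, at -0.45 (adjusted p = 0.0534) without the first and -0.42 (0.0566) without the second.

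The size of the iPS5 values depended on the background correction. With an offset of 0 the log2 ratio of Rhox6 in iPS5 was -2.19 and that of Rhox9 -1.75 (limma adjusted p = 0.00584 and 0.00856). With plain subtraction of the background they were -1.96 and -1.55. Rhox13 in iPS5 was -1.23 with an offset of 0 and -1.04 with plain subtraction (0.00830 and 0.00669). The values of -1.02, -0.79 and -0.44 above are smaller in size than under both alternatives.

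The calls of Rhox6 and Rhox9 over the 3 lines did not hold when any line was left out, in fits on fewer line means. Without iPS1 or without iPS4 such a fit called 0 gene probes, so no gene could keep a call there. Without iPS5 it called 5422. Without iPS1 the mean of Rhox6 was -1.05 (limma adjusted p = 0.0629) and that of Rhox9 -0.79 (0.0629), without iPS4 they were -0.75 (0.259) and -0.61 (0.235), and without iPS5 -0.79 (0.0799) and -0.61 (0.0557). Leaving out single arrays ended the Rhox6 call for the first array of iPS1 (-0.87, 0.050), iPS4 (-0.88, 0.0624) and iPS5 (-0.83, 0.0749), and the Rhox9 call for the second array of iPS1 (-0.63, 0.0549) and the first of iPS4 (-0.67, 0.0516) and iPS5 (-0.61, 0.0642). When the ES pool was given the same spread as a line, neither gene passed (adjusted p = 0.495 and 0.444), and 0 of all gene probes did. The ratio stayed below 0 in all these fits.

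Rhox6, Rhox9 and Rhox13 passed a test for differences among the lines, on a spread of duplicate arrays that may be technical. The F test among the 3 lines, in which 20% of all gene probes passed, gave adjusted p in limma of 0.00207 for Rhox6, 0.0499 for Rhox9, 0.00476 for Rhox13 and 0.940 for Rhox11. Rhox6, Rhox9 and Rhox13 did not pass it with offset 0 (0.0685, 0.105 and 0.128) or median centring (0.0588, 0.232 and 0.0520). Rhox6 was lower in iPS4 than in iPS1 by a log2 difference of -0.60 (SE 0.0636, adjusted p = 0.00263), in a contrast that called 9.09% of probes. It was lower in iPS5 than in iPS1 by -0.53 (SE 0.0636, adjusted p = 0.00203), in a contrast that called 18.3%. Between iPS5 and iPS4, where 10.8% of probes were called, the difference in Rhox6 was 0.07 (SE 0.0636, adjusted p = 0.587) and did not pass. The iPS4 against iPS1 call for Rhox6 was lost without the second iPS1 array (-0.54, adjusted p = 0.0553).

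Rhox9 differed from iPS1 by -0.36 in both other lines, and this passed for iPS5 (SE 0.0937, adjusted p = 0.0401) and not for iPS4 (adjusted p = 0.0654). The difference between iPS5 and iPS4 was -0.0022 (SE 0.0937, adjusted p = 0.994). Leaving out arrays changed these calls. The iPS5 difference was -0.34 (0.242) without the first and -0.37 (0.186) without the second iPS1 array, and -0.21 (0.0840) without the first iPS5 array. The iPS4 difference passed without the second iPS4 array (-0.52, 0.0387) and without either iPS5 array (-0.36, 0.00114). The F test of Rhox9 did not pass without the first or the second iPS1 array (adjusted p = 0.299 and 0.256).

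Rhox13 had another order of lines. It was lower in iPS4 than in iPS1 by -0.43 (SE 0.0764, adjusted p = 0.0176) and higher in iPS5 than in iPS4 by 0.62 (SE 0.0764, adjusted p = 0.00520), while iPS5 and iPS1 differed by 0.19 (adjusted p = 0.149). The first difference did not pass without the second iPS1 array (-0.31, 0.175) or without the first (-0.45, 0.110) or second (-0.40, 0.136) iPS4 array, and the second difference did not pass without the second iPS4 array (0.59, 0.0577). The difference between iPS5 and iPS1 passed without the first iPS5 array (0.29, 0.0177). With offset 0 neither difference passed (-0.69, 0.180, and 0.33, 0.265), and iPS5, at -1.23, lay between iPS1 at -0.87 and iPS4 at -1.56.

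The authors' deposited values were lower in the same genes. Their ratios per array ran from -0.41 to -1.21 for Rhox6, from -0.42 to -1.06 for Rhox9 and from -0.39 to -1.20 for Rhox13. In the authors' deposited table the mean log2 ratio was -0.92 for Rhox6 with a p of 0.0012, -0.70 for Rhox9 with a p of 0.0018, -0.79 for Rhox13 with a p of 0.0048 and -0.02 for Rhox11 with a p of 1. The test behind these p-values is not given in the sources used here.

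The genes around the cluster were read in their order on chromosome X. In the stretch from the first to the last Rhox gene of the gene table lie 7 measured genes, the 4 Rhox genes and Btg1b, Zbtb33 and Tmem255a, and only Rhox6 and Rhox9 of them were called lower over the lines. Btg1b, a relative of an antiproliferative gene, lies between Rhox9 and Rhox11 and had -0.27 (limma adjusted p = 0.0770). Zbtb33, which encodes the methyl-CpG binding protein Kaiso, had 0.48 (0.129), with 0.71 in iPS1, 0.64 in iPS4 and 0.08 in iPS5, and its second probe had 0.09. Of the 5 nearest measured genes on the side of Rhox6, Nkap, Akap14, Ndufa1, Rnf113a1 and Gm9, 0 were called, with means from -0.33 in Gm9 to 0.10 in Nkap on the brightest probes. The dimmer Ndufa1 probe had -0.35 (limma adjusted p = 0.0921). In the fits of single lines, however, Gm9 (adjusted p = 0.0262, 1.87e-04 and 0.0141) and Ndufa1 (2.26e-04, 0.00686 and 0.0155) passed as lower in iPS1, iPS4 and iPS5, as Rhox13 did, and Btg1b in iPS1 and iPS4 (9.21e-04 and 0.00146). These fits called 17.1%, 18.3% and 9.36% of all gene probes lower and 19.2%, 18% and 10.2% higher. Zbtb33 passed as higher in iPS1 and iPS4, and Nkap and Tmem255a in iPS1. On the other side, Atp1b4, Lamp2, Cul4b, Mcts1 and C1galt1c1 had means from -0.13 to 0.35 on the brightest probes, and Mcts1 was called higher (0.35, adjusted p = 0.0369). A dimmer Lamp2 probe had -0.43 (limma adjusted p = 0.0681). In single lines Mcts1 passed as higher in each, Cul4b in iPS1 and iPS4, and C1galt1c1 in iPS4 and iPS5. Lamp2 passed as lower in iPS1 and iPS4, and Cul4b in iPS5. Over the X chromosome without Rhox genes, 2.93% of 649 genes were called lower and 3.54% higher, with a median of -0.0054, beside 4.95% and 5.21% of all genes and a median of -0.0049.

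**Figure D3:**
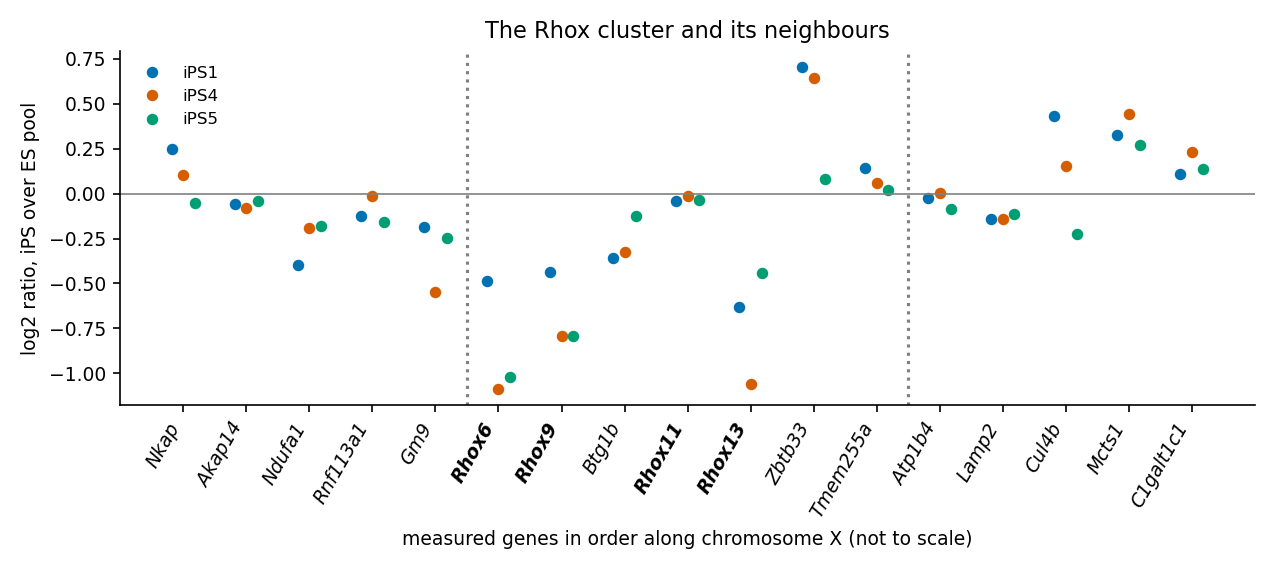
Log2 ratio of iPS over ES (vertical axis) in iPS1, iPS4 and iPS5 for the measured genes of the Rhox cluster (between the dotted lines, Rhox genes in bold) and 5 measured genes on each side, in chromosome order and not to scale. Points are line values; Rhox6, Rhox9 and Rhox13 reach the lowest values shown, down to -1.09 in iPS4.

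The genes most like Rhox6 and Rhox9 over the 6 arrays were found by the root mean square difference of the log2 ratios, among 10340 genes above background in both channels on all arrays. Rhox genes and symbols with the form of predicted or unnamed transcripts were left out. That filter also removed some named genes of similar form, E2f6 among them. Nearest to Rhox6 were Fxyd6 (0.0760), a regulator of the sodium pump, Sgce (0.116), a sarcoglycan, and Ccng2 (0.117), a cyclin of the G type. Nearest to Rhox9 were Card19 (0.102), Ppp3cb (0.104), a catalytic subunit of calcineurin, and Rab25 (0.123), a small GTPase of epithelial vesicle traffic. None is given for Rhox11, whose ratios lay near background.

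DNA methylation is the known brake on the cluster, and its genes were described as a list. Of 14 measured genes 3 rose and 2 fell over the lines, with a median of 0.0856 beside -0.0049 for all genes. In iPS1, iPS4 and iPS5, 6, 6 and 4 were called higher and 4, 3 and 4 lower. Of all gene probes 19.2%, 18% and 10.2% were called higher there and 17.1%, 18.3% and 9.36% lower. The test over the lines called 3.86% of all gene probes higher and 3.82% lower, here and for the lists below. Uhrf1, which brings the maintenance methyltransferase to replicated DNA, rose by 0.67 ± 0.159 (SD, n = 3; limma adjusted p = 0.0302), and both of its probes passed. Dnmt1, that methyltransferase, rose by 0.29 ± 0.0321 (0.0297), and Dnmt3l, a cofactor of the de novo enzymes, by 0.54 ± 0.207 (0.0496). Dnmt3a, a de novo enzyme, had -0.56 ± 0.0213 (0.0201) and passed on 2 of its 3 probes, with -0.13 on the third. Mbd3, a subunit of the NuRD complex, had -0.54 ± 0.121 (0.0302). Dnmt3b did not pass, with 0.72 in iPS1, 0.29 in iPS4 and -0.18 in iPS5, and neither did Tet1 at -0.14 (0.0841). Hells and Tet2 did not pass on their brightest probes (-0.015, 0.922, and 0.45, 0.179). A dimmer probe of each passed as higher (0.66, 0.0438, and 0.31, 0.0474). Whether any of these levels bears on the Rhox genes was not tested.

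**Figure D4:**
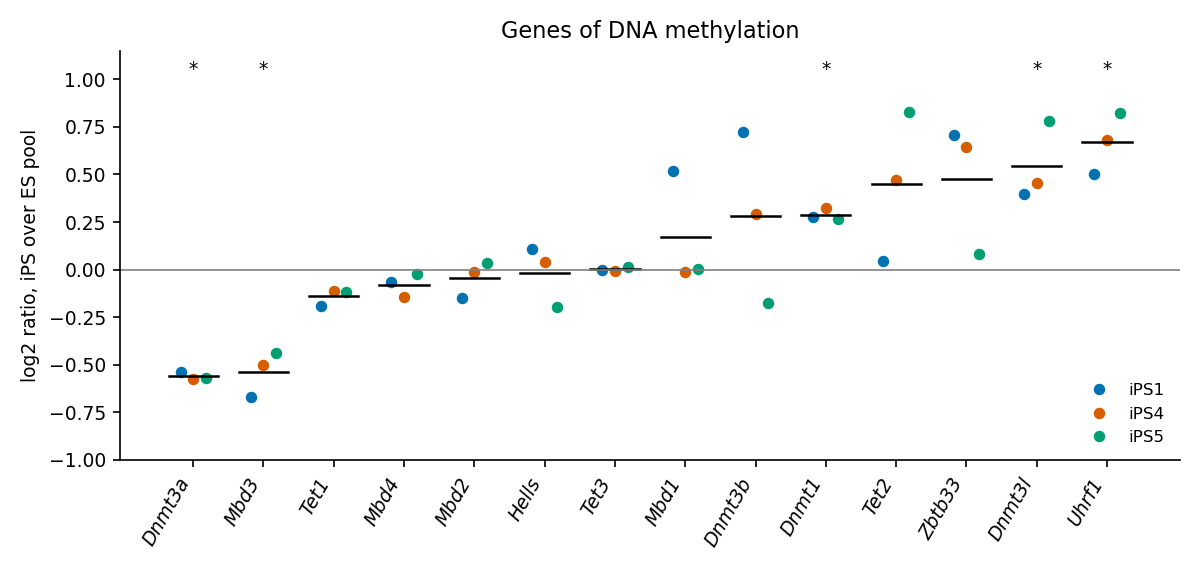
Log2 ratio of iPS over ES (vertical axis) for 14 genes of DNA methylation, with 1 point for each of iPS1, iPS4 and iPS5 and a black line at their mean. Stars mark the 5 genes called over the lines; Dnmt3a and Mbd3 are lower, and Dnmt1, Dnmt3l and Uhrf1 higher, in all 3 lines.

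Of 25 regulators of repressive histone marks, Setdb1 (0.50, limma adjusted p = 0.0357) and Atf7ip (0.27, 0.0341), which act together in a histone H3 methyltransferase complex, rose, and the demethylase Kdm4c (-0.59, 0.0260) fell, with a list median of 0.07. Setdb1 rests on 1 of its 3 probes and Atf7ip on 2 of its 6. A dimmer probe of Mga passed as higher (0.40, 0.0329), and its brightest did not (-0.0030, 0.976). Germ line genes that are known to be silenced by promoter methylation, as Rhox genes are, had a median of -0.437 over 22 measured genes. Of these Hormad1 (-1.23, 0.0296), Zcwpw1 (-1.02, 0.0302) and Sycp3 (-0.92, 0.0496), all genes of meiosis, fell over the lines, and 0 rose. Their medians were -0.268 in iPS1, -0.958 in iPS4 and -0.278 in iPS5, and 12, 17 and 13 of the 22 were called lower in these lines, beside 17.1%, 18.3% and 9.36% of all gene probes. Called higher were 3, 0 and 1 of them, in iPS1 Dazl (0.53), Tex19.1 (0.59) and Ddx4 (0.33), beside 19.2%, 18% and 10.2% of all gene probes. Of 10 primordial germ cell genes, with a median of 0.185, 1 rose over the lines, Ifitm3 (0.70, 0.0314), and 0 fell, where 3.86% of all gene probes were called higher. In iPS1, iPS4 and iPS5, 9, 6 and 2 of the 10 were called higher and 1, 2 and 4 lower.

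Among 10 measured X-linked multicopy genes, which share the X chromosome and germ line use with the Rhox genes, none passed over the lines (limma). At an unadjusted p under 0.05, 6 of the 10 passed, beside 28.5% of all gene probes. In each of iPS1, iPS4 and iPS5, 6 were called lower, beside 17.1%, 18.3% and 9.36% of all gene probes, and 0 higher. Xlr4b, a lymphocyte-regulated gene, had -0.92 in iPS1, -5.21 in iPS4 and -3.72 in iPS5 on its brighter probe, and a mean of -0.12 on its dimmer one. As in Rhox6, iPS1 was closest to the pool. Of 9 measured genes reported downstream of Rhox5 in the mouse testis, 0 passed over the lines in limma, with a median of -0.0044, and 1 had an unadjusted p under 0.05, Ins2 (-0.19, adjusted p = 0.174), 1 of the mouse insulin genes. Of 9 measured sex-linked genes 0 passed in limma, and 5 had an unadjusted p under 0.05. Among them the Y-linked Eif2s3y, a translation initiation factor gene, was called lower in each line, at -0.41 in iPS1 (adjusted p = 0.00514) and -4.23 in iPS4 (7.25e-07). In iPS5 it had -2.91 (4.40e-06). The iPS channel was above background on neither iPS5 array, so the size of that ratio is imprecise. The Y-linked Kdm5d and Uty did not pass in any line, with values from -0.34 to 0.04. The dimmest probe of the X-linked Ddx3x passed as lower over the lines (-0.62, limma adjusted p = 0.0298), and its brightest did not (0.15, 0.139).

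Some markers of other cells were also lower in the lines. All 12 fibroblast markers had means below 0, with a median of -0.648, and 4 were called lower, Dcn (-1.42, limma adjusted p = 0.0327), Thy1 (-0.82, 0.0357), Cdh11 (-0.78, 0.0358) and S100a4 (-0.32, 0.0393). This test called 3.82% of all gene probes lower. Taken alone, iPS1, iPS4 and iPS5 had 12, 12 and 11 of the 12 called lower and 0 higher. Of all gene probes 17.1%, 18.3% and 9.36% were called lower there. The summed normalized level of the fibroblast markers was 9000 to 10100 in the ES channel, 4090 to 4300 in iPS1, 6470 to 6640 in iPS4 and 7140 to 7370 in iPS5. The line with the lowest fibroblast sum, iPS1, had the Rhox6 and Rhox9 ratios closest to 0. The Rhox13 ratio was closest to 0 in iPS5. Of 13 trophoblast markers 3 were called lower over the lines, the simple keratins Krt7, Krt8 and Krt18 (-0.96, -1.20 and -1.69), which other epithelia also express. In iPS1, iPS4 and iPS5, 7, 9 and 5 of the 13 were called lower and 2, 2 and 1 higher. Of all gene probes 17.1%, 18.3% and 9.36% were called lower there and 19.2%, 18% and 10.2% higher. Esx1 was called lower in each line (-0.84, -1.06 and -0.45), and Hand1 in iPS1 and iPS4 (-0.79 and -0.70). Neither was above background in both channels on all arrays. The summed trophoblast level was 2780 to 3320 in the ES channel, 2520 to 2630 in iPS1, 2040 in iPS4 and 1810 to 1890 in iPS5. Rhox9 levels had the same order, with a difference between iPS4 and iPS5 that did not pass. Rhox6 and Rhox13 levels did not, since both were lowest in iPS4, at 6.92 and 6.51. Of the defining trophoblast factors, Cdx2, Elf5 and Gata3 were not above background in both channels on all arrays and had means between -0.09 and 0.07. Eomes, another, had a mean of 0.96 (0.110) and was called higher in each line, at 1.60, 0.95 and 0.34 in iPS1, iPS4 and iPS5 (adjusted p = 3.38e-06, 1.74e-05 and 0.00272). Its ES channel was above background on 1 of the 2 iPS5 arrays, so Eomes too did not pass that filter. Tfap2c, also on the list, was called higher in iPS1 and iPS4 (0.71 and 0.36) and lower in iPS5 (-0.65). Primordial germ cell markers (5 measured) and extraembryonic endoderm markers (15 measured) had 0 called in limma and 2 and 1 at an unadjusted p under 0.05, with summed levels of 1010 to 1690 and 2740 to 4860 in the iPS channels beside 1080 to 1310 and 3300 to 4010 in the ES channels. In iPS1, iPS4 and iPS5, 5, 3 and 1 of the 5 germ cell markers were called higher and 0, 1 and 1 lower. Of the 15 endoderm markers, 2, 2 and 7 were called higher and 7, 8 and 0 lower. Among all gene probes, 19.2%, 18% and 10.2% were called higher and 17.1%, 18.3% and 9.36% lower in these lines. The ES cell markers, 9 measured and all above background in both channels on all arrays, were present as labelled. Of these Nanog (0.65, limma adjusted p = 0.0264) and Sall4 (0.65, 0.0201) were called higher in the lines and Zfp42 (-2.74, 0.0201) and Tdgf1 (-0.38, 0.0271) lower. The dimmer Sall4 probes did not pass, with 0.014 (0.809) and 0.45 (0.064). The part of these cell types in the Rhox values was not tested. In such mixed samples, fewer cells of a type and less RNA per cell cannot be told apart.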

How the data were processed

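The deposited scanner output gave, for each spot, the intensity of both channels with its local background, before any normalization. The authors' deposited ratios were log2 values per spot and array, iPS over ES, with a normalization that is not given in the sources used here. The authors' final table paired each reporter with an average log2 ratio and a p-value, per the file headers.

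Each array held 45220 spots, 41174 of them gene probes. In limma 3.58.1 (statmod 1.5.0, R 4.3.3), background was corrected with normexp (offset 50), each array was normalized by loess with control spots at weight 0, and ratios were turned to iPS over ES. Channel levels were taken after Aquantile normalization. Both arrays of a line were averaged, and limma tested the 3 line means against 0 (two-sided). Single lines, pairs of lines and the F test came from 6 arrays with a dye term. P-values were adjusted by Benjamini-Hochberg over all gene probes, and an adjusted p under 0.05 was called. The fits were run on simulated data with a smaller spread than these data, which checks the calculation and not the power of the tests here. Symbols came from the platform's probe table, 3726 updated by synonym to the GRCm38.p6 gene table, which also gave the gene order. The array files name no build, so coordinates are given only for the promoter windows, which are from GRCm38.p6. A gene's brightest probe stood for it.

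All member probes were reported whatever their values. From each list, the called genes, up to 4 by smallest p, were named. Neighbours were the 5 nearest measured genes on each side, and like genes the 3 with the smallest root mean square difference over 6 arrays, left out for Rhox11. Further genes (Btg1b, Zbtb33, Dnmt3b, Dnmt3l, Tet1, Ins2, Xlr4b, Cdx2, Elf5, Gata3, Eomes, Tfap2c, Eif2s3y, Kdm5d, Uty, Dazl, Tex19.1 and Ddx4) were chosen after their values were seen. So were Esx1, Hand1, Hells, Tet2, Mga and Ddx3x. The members and lists were chosen with earlier results of these data known, so no list is independent support.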

Additional observations from a re-analysis of the deposited data

Results flagged for a closer look

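Differences between lines were singled out where the contrast of 2 lines passed an adjusted p under 0.05 in limma, on a spread between duplicate arrays that may be technical. Rhox6 differed by -0.60 (iPS4 minus iPS1, adjusted p = 0.00263) and by -0.53 (iPS5 minus iPS1, adjusted p = 0.00203). Rhox9 differed by -0.36 (iPS5 minus iPS1, adjusted p = 0.0401). Rhox13 differed by -0.43 (iPS4 minus iPS1, adjusted p = 0.0176) and by 0.62 (iPS5 minus iPS4, adjusted p = 0.00520). No group had enough lines for a check of single outlying lines.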

How the results depend on the processing

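Rhox6 and Rhox9 stayed below 0 in every line and in the mean under every alternative run, with the mean of Rhox6 between -1.40 and -0.75 and that of Rhox9 between -1.08 and -0.61. The calls were less stable, and apart from settings that leave samples out the cause was not tested. With offset 0, lost calls of Rhox6 and Rhox9 were the mean of Rhox9 (-1.08), Rhox9 in iPS1 (-0.54), Rhox6 iPS4 minus iPS1 (-0.79), Rhox9 iPS5 minus iPS1 (-1.21) and the F tests (adjusted p = 0.0685 for Rhox6, 0.105 for Rhox9), and 2 differences reversed, Rhox6 iPS5 minus iPS4 (-0.79) and Rhox13 iPS5 minus iPS1 (-0.36). The mean then called 4883 probes in place of 3161 and the F test 0 in place of 8241 (limma; 8821 at an unadjusted p under 0.05). With plain subtraction, Rhox6 iPS4 minus iPS1 (-0.79) and the Rhox9 F test (0.0884) were lost, the same 2 differences reversed (-0.57 and -0.19), and the mean called 5546 and the F test 585. With median centring, those lost were Rhox6 iPS4 minus iPS1 (-0.66), Rhox6 and Rhox9 iPS5 minus iPS1 (-0.56 and -0.38) and the F tests (0.0588 and 0.232). There Rhox11 (mean 0.0099, iPS4 0.10) and Rhox9 iPS5 minus iPS4 (0.038) reversed, and the mean called 4967 and the F test 640. With arrays scaled, the means of Rhox6 (-0.90, adjusted p = 0.0587) and Rhox9 (-0.70, 0.0503) were lost, Rhox6 iPS5 minus iPS4 (-0.33, 0.0274) and Rhox13 iPS5 minus iPS1 (-0.017) reversed, and the mean called 5048. The Rhox9 F test was lost with the deposited ratios (0.0659), with gene means (0.0565) and without the dye term (0.384), which also ended Rhox6 iPS4 minus iPS1 (-0.60) and Rhox9 iPS5 minus iPS1 (-0.36). The F test called 4361 with gene means and 1494 without the dye term, and the mean called 1526 with gene means, 4770 among 17103 probes above background (a filter that removed Rhox9, Rhox11 and Rhox13) and 9191 with the line as a random block. With the ES pool as a varying sample, Rhox6 (-0.86) and Rhox9 (-0.67) were lost and 0 probes called (limma; 3766 unadjusted). Rhox13 iPS4 minus iPS1, iPS5 minus iPS4 and its F test were lost with offset 0 (adjusted p = 0.180, 0.265 and 0.128), plain subtraction (0.122, 0.168 and 0.100) and median centring (0.106, 0.0673 and 0.0520), and both differences without the dye term (0.0977 and 0.0536).

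Without line iPS1, iPS4 or iPS5 the mean of Rhox6 was -1.05, -0.75 and -0.79 and that of Rhox9 -0.79, -0.61 and -0.61, none called, with 0, 0 and 5422 probes called (limma; 8786 and 5960 at an unadjusted p under 0.05 for the first 2). Leaving out 1 array at a time, the mean of Rhox6 ran from -0.90 to -0.83 and that of Rhox9 from -0.74 to -0.61, and Rhox9 in iPS1 from -0.45 to -0.42. Rhox6 iPS4 minus iPS1 ran from -0.65 to -0.54 and iPS5 minus iPS4 from -0.016 to 0.15. Rhox9 iPS4 minus iPS1 ran from -0.52 to -0.19, iPS5 minus iPS1 from -0.50 to -0.21 and iPS5 minus iPS4 from -0.16 to 0.16, with F test adjusted p from 3.98e-04 to 0.299. Rhox11 ran from -0.096 to 0.073 in iPS4 and from -0.12 to 0.041 in iPS5. The mean then called 457 to 5881 probes and the F test 3374 to 12340. No paired analysis was possible because replicate numbers only name the arrays of a line.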
